A study of Mus musculus with 18 samples.

Results

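The 9 MHC class II antigen presentation genes examined here were H2-Aa, H2-Ab1, H2-Eb1, H2-DMa, H2-DMb1, Cd74, Ciita, Cd207 and Ctss, of 35150 genes in the expression table. They were chosen by name, with earlier results of these data known. All have a place in the class II pathway except Cd207, a lectin gene of Langerhans cells and some dermal dendritic cells. The level of each gene was the sum of the TPM (a read share corrected for transcript length) over its Ensembl transcripts. The authors had normalized these values between samples, so they were not on a fixed total, and sample sums ran from 833186 to 1143839. All 9 genes passed the filter on low values, a TPM of at least 1 in 47% of the samples compared, at every time point. RNA was measured in the whisker pads of 9 adult mice, 3 each at 1, 3 and 7 days after surgery, which gave 18 samples. On the right side of each mouse the facial nerve was cut at its buccal and superior marginal branches, which paralyzed the whiskers (denervated side). On the left side the skin was opened and closed again and the nerve was spared (sham side). Each sample was a 3 mm punch through skin and muscle of the rostral pad. Both sides of every mouse were therefore operated on, the lesion was always on the right, and lesion and side cannot be told apart. Strain, genotype, and the age and sex of single mice were not stated for these samples. The study gives a range of ages for these mice and used both sexes, and different mice were sampled on each day, so day groups may differ in age and sex, while both sides of a mouse share them.

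MHC class II molecules are pairs of an alpha and a beta chain that carry peptides from endocytosed proteins to the cell surface, where CD4+ T cells inspect them. They are made mainly by dendritic cells, Langerhans cells of the epidermis, macrophages and B cells, and can be induced in other cells by interferon gamma. In the endoplasmic reticulum the invariant chain, encoded by Cd74, fills the groove. Cathepsin S, encoded by Ctss, trims it in endosomes, and the editor H2-DM, built from the products of H2-DMa and H2-DMb1, exchanges its remnant for antigenic peptide. Ciita encodes the transactivator that the promoters of this pathway depend on, and Cd207 encodes langerin, a lectin of Langerhans cells and of some dermal dendritic cells.

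The promoters of class II genes share an X box and, downstream of it, a Y box that contains the letters ATTGG, and the 3 promoters of these genes that hold such a pair are printed here to show it. The windows, from RefSeq on build GRCm38.p6, run from 250 bases before to 50 bases after the annotated start, and 7 windows were found for 6 of the 9 genes, with a pair in 3 of the 7. No window was available for H2-Ab1, Cd74 and Ciita, so their promoters were not searched. Capitals mark the letters GNAAC of the X box core and ATTGG, on the strand of the gene. The window of Cd207 is shown as one without a pair. Both windows of H2-DMa and that of Ctss hold none either, although both genes correlated with the chain genes across samples.
H2-Aa (chr17:34287774-34288073, minus strand): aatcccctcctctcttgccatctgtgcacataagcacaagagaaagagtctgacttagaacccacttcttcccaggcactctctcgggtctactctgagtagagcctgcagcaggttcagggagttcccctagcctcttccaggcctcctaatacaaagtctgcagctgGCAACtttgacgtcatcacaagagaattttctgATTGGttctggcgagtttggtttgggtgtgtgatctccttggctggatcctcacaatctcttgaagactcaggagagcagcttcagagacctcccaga
H2-Eb1 (chr17:34305617-34305916, plus strand): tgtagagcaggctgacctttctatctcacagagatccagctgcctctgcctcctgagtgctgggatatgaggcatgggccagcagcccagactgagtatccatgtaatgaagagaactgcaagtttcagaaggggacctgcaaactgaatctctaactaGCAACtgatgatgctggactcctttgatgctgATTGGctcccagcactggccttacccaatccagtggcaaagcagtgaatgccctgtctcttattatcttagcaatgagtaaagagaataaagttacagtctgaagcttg
H2-DMb1 (chr17:34152941-34153240, plus strand): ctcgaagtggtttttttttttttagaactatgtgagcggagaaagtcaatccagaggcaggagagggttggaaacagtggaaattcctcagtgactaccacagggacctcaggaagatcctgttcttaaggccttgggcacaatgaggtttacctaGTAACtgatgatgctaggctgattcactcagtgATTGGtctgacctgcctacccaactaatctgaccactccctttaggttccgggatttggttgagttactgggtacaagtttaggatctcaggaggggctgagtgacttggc
Cd207 (chr6:83677808-83678107, minus strand): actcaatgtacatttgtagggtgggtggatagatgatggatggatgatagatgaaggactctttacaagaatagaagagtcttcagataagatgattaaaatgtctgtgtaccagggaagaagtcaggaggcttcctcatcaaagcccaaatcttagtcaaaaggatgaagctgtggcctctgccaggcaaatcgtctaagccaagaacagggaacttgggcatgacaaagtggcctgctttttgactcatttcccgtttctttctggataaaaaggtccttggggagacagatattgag

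The spacing of the pair was the same within a base in the 3 genes: 28 bases separated GNAAC from ATTGG in H2-Aa and H2-DMb1, and 27 in H2-Eb1. The ATTGG began 48 bases before the annotated start in H2-Aa, 59 in H2-Eb1 and 61 in H2-DMb1. Searched on both strands with 27 to 37 bases between its parts, the pair was found in 1.81% of all 32851 promoter windows, and ATTGG alone in 37.4%. The longer CTGATTGG, which includes ATTGG, was found in 4.1% of windows, among them those of H2-Aa and H2-Eb1. Outside the 9 genes the pair met this rule in 2 of 4 other class II windows, those of H2-Oa and H2-Eb2. The window of H2-Ob holds GCAAC and ATTGG on the strand of the gene, but with fewer than 27 bases between them. That of H2-DMb2 holds ATTGG with TTAAC before it in place of GNAAC. A window that misses the rule is therefore not shown to lack an X box. The pair and its spacing were chosen after the sequences were seen. The lower limit of 27 bases equals the spacing in H2-Eb1, so the like spacing in the 3 genes is no independent result. A match describes the letters of these windows and is not a measured binding site.

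Class II transcripts were abundant in the whisker pad. Over the 18 samples the mean level was 291 TPM for Cd74 (SD 101), 181 TPM for H2-Aa (SD 61.7), 161 TPM for H2-Ab1 (SD 60.9) and 128 TPM for H2-Eb1 (SD 42.4). Ctss averaged 41.0 TPM (SD 20.5). The editor subunits were lower, with 20.8 TPM for H2-DMb1 (SD 5.47) and 13.1 TPM for H2-DMa (SD 3.26). Cd207 averaged 4.34 TPM (SD 1.56) and Ciita 1.62 TPM (SD 0.46). This order held between neighbours in 18 of 18 samples for Cd74 over H2-Aa, H2-Eb1 over Ctss, H2-DMb1 over H2-DMa and H2-DMa over Cd207. It held in 17 of 18 samples for Ctss over H2-DMb1 and for Cd207 over Ciita. The neighbours among the 3 chain genes were less clearly separated: H2-Aa exceeded H2-Ab1 in 13 of 18 samples, and H2-Ab1 exceeded H2-Eb1 in 15. The ratio of H2-Aa to H2-Eb1 was above 1 in every sample (1.17 to 1.56). The library sizes behind these levels were estimated from the steps of low values at 10300000 to 32000000 reads, which put a median of 3791 reads on Cd74, 93 on Ciita and 73 on Cd207, so these 2 genes also carried the most counting error.

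**Figure D1:**
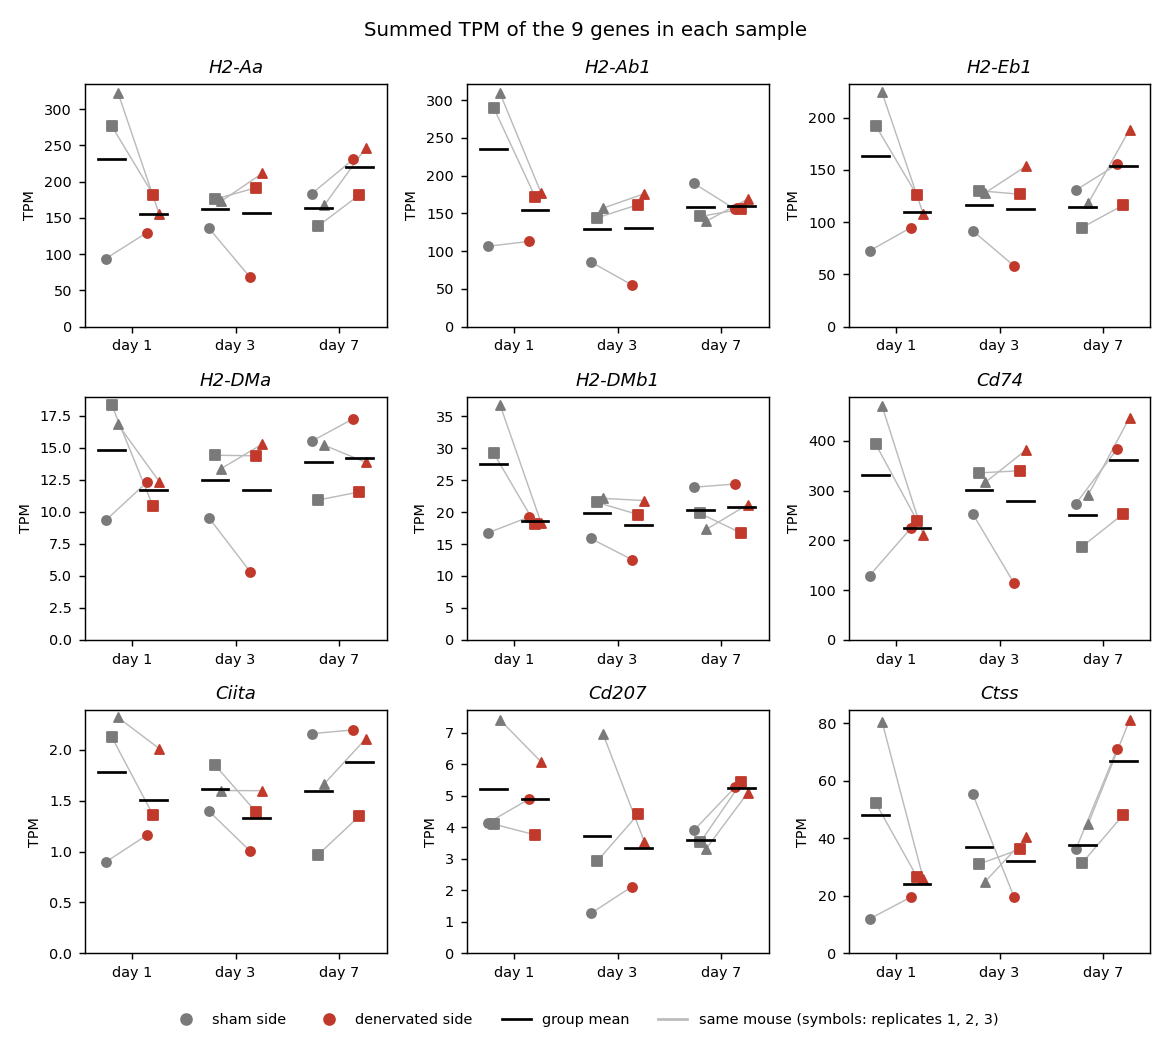
Summed TPM of each gene (y axes, from 0) by day (x axes), with sham samples in grey, denervated samples in red, group means as black bars and both sides of a mouse joined by a line. The sides overlap in every panel except Ctss and Cd207 at day 7, where the 3 denervated samples lie above the 3 sham samples.

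None of the 3 chain genes was called between sides on any day after adjustment over all genes. H2-Aa, which encodes the A alpha chain, stood at 93.7, 277 and 323 TPM on the sham side at day 1 (mice 1, 2 and 3) against 130, 182 and 155 TPM on the denervated side. Its partner H2-Ab1, the A beta chain, stood at 106, 289 and 309 TPM against 113, 172 and 176 TPM. H2-Eb1, the E beta chain, stood at 72.5, 192 and 224 TPM against 94.8, 126 and 108 TPM. In all 3 genes the sham samples of day 1 enclosed the denervated ones, since sham mouse 1 was lowest and sham mice 2 and 3 were highest. The limma estimates at day 1 were -0.40 on the log2 scale for H2-Aa (SE 0.47, adjusted p = 0.999), -0.49 for H2-Ab1 and -0.43 for H2-Eb1, and the 95% interval for H2-Aa ran from -1.53 to 0.74.

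At day 3 the groups overlapped again. H2-Aa measured 136, 176 and 173 TPM on the sham side and 68.1, 192 and 212 TPM on the denervated side. H2-Ab1 measured 85.8, 144 and 157 TPM against 55.2, 162 and 176 TPM. H2-Eb1 measured 91.7, 130 and 128 TPM against 58.2, 127 and 154 TPM. The denervated sample of mouse 1 was the lowest of the 6 for each chain, and the sham sample of the same mouse was the next lowest. Without this mouse the day 3 differences of all 3 chains changed from negative to positive (H2-Aa 0.21, H2-Ab1 0.16 and H2-Eb1 0.11, log2).

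At day 7 H2-Aa and H2-Eb1 were higher on the denervated side of all 3 mice, and H2-Ab1 in 2 of 3. H2-Aa measured 184, 139 and 168 TPM on the sham side and 231, 182 and 246 TPM on the denervated side. H2-Eb1 measured 131, 94.9 and 118 TPM against 155, 116 and 189 TPM, and H2-Ab1 190, 146 and 140 TPM against 155, 156 and 169 TPM. The mean sides of H2-Ab1 were nearly level, at 158 TPM (SD 27.2) and 160 TPM (SD 7.7). The limma difference was 0.42 for H2-Aa (SE 0.17, 95% interval 0.03 to 0.82, adjusted p = 0.375) and 0.40 for H2-Eb1 (SE 0.21, adjusted p = 0.505). For H2-Ab1 it was 0.03, with an interval from -0.32 to 0.37. None passed the threshold after adjustment over 15081 genes. With the mouse as a block they also stayed uncalled (adjusted p = 0.121 for H2-Aa and 0.189 for H2-Eb1, limma).

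Cd74, the invariant chain, followed the chains it accompanies. On the sham side of day 1 it measured 129, 393 and 470 TPM, and on the denervated side 224, 240 and 211 TPM. At day 3 it measured 253, 336 and 316 TPM against 114, 340 and 382 TPM, and at day 7 274, 188 and 292 TPM against 384, 253 and 446 TPM. The denervated side was higher in all 3 mice at day 7, by 0.49, 0.43 and 0.61 on the log2 scale, while the sham and denervated ranges still overlapped. The day 7 difference was 0.51 (SE 0.26, 1.43-fold, 95% interval -0.10 to 1.13, adjusted p = 0.497, limma). With the mouse as a block the SE was 0.096 and Cd74 stayed uncalled (adjusted p = 0.0713, limma). The ratio of Cd74 to H2-Eb1 stayed between 1.78 and 2.76 in the 18 samples, a narrower range than the 4.12-fold spread of Cd74 itself.

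The genes of the peptide editor H2-DM did not differ detectably between sides at day 7. H2-DMa measured 15.5, 10.9 and 15.2 TPM on the sham side and 17.3, 11.6 and 13.9 TPM on the denervated side (log2 difference 0.03, 95% interval -0.44 to 0.51). H2-DMb1 measured 23.9, 19.8 and 17.3 TPM against 24.4, 16.7 and 21.2 TPM (log2 difference 0.03, 95% interval -0.41 to 0.46). At day 1 H2-DMb1 measured 16.7, 29.2 and 36.8 TPM on the sham side and 19.2, 18.1 and 18.2 TPM on the denervated side, and here too sham mouse 1 lay apart from sham mice 2 and 3. H2-DMb1 has a close copy, H2-DMb2 (mean 3.83 TPM), and the division of reads between them is uncertain.

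Ciita was the least abundant of the 9 genes and had the narrowest range in fold, 2.59 between its lowest and highest sample (0.90 and 2.32 TPM). It measured 0.90, 2.13 and 2.32 TPM on the sham side of day 1 against 1.16, 1.36 and 2.01 TPM, and 1.40, 1.85 and 1.60 TPM against 1.01, 1.39 and 1.60 TPM at day 3. At day 7 it measured 2.16, 0.97 and 1.67 TPM on the sham side and 2.20, 1.35 and 2.11 TPM on the denervated side. The summed level was thus lower on the denervated side of all 3 mice at day 3, mouse 3 by 0.001 on the log2 scale, and higher in all 3 at day 7, but with the main transcript alone it was higher in 2 of 3 at day 3, with equal sums in 1 of 3 at day 3 and 2 of 3 at day 7, and after median-of-ratios rescaling in 2 of 3 at day 7. The limma differences were -0.22 (SE 0.22, adjusted p = 0.727) and 0.21 (SE 0.30, adjusted p = 0.833). The change of effect from day 3 to day 7 was 0.42 (SE 0.41, adjusted p = 0.891).

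Ctss, the cathepsin that trims the invariant chain, had the widest range in fold of the 9 genes, 6.77 (11.97 to 81.1 TPM), and the largest day 7 difference of them. At day 7 it measured 36.2, 31.4 and 45.1 TPM on the sham side and 71.1, 48.2 and 81.1 TPM on the denervated side, and the groups did not overlap. The within-mouse differences were 0.96, 0.61 and 0.84 on the log2 scale. The limma difference was 0.80 (SE 0.23, 1.75-fold, 95% interval 0.27 to 1.34), with an unadjusted p of 0.0097 and an adjusted p of 0.203. When the mouse was entered as a block, so that each denervated side was set against the sham side of its own animal, the adjusted p was 0.0351 and Ctss was called. At day 1 Ctss measured 11.97, 52.2 and 80.6 TPM on the sham side and 19.5, 26.5 and 26.0 TPM on the denervated side, and at day 3 55.4, 31.0 and 24.9 TPM against 19.6, 36.2 and 40.3 TPM. On both of these days the mice went opposite ways, with 1 of 3 higher on the denervated side at day 1 and 2 of 3 at day 3.

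Cd207, the langerin gene, also had groups that did not overlap at day 7. It measured 3.90, 3.52 and 3.32 TPM on the sham side and 5.27, 5.42 and 5.08 TPM on the denervated side. The difference was 0.50 (SE 0.13, 1.41-fold, 95% interval 0.18 to 0.82, unadjusted p = 0.0079, adjusted p = 0.182, limma), and the block left it uncalled (adjusted p = 0.172). At day 1 it measured 4.13, 4.10 and 7.40 TPM against 4.89, 3.76 and 6.07 TPM. At day 3 it measured 1.26, 2.91 and 6.95 TPM against 2.12, 4.41 and 3.53 TPM. Day 3 mouse 1 held the lowest values of the series on both sides, and the sham sample of day 3 mouse 3 was among the highest, so the day 3 difference of 0.07 (SE 0.53) had a wide error.

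**Figure D2:**
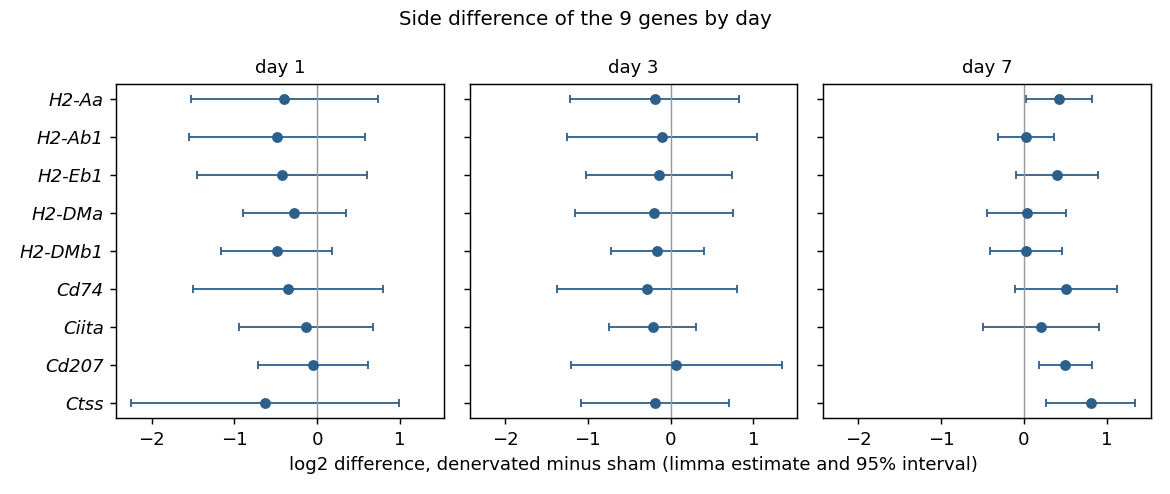
Estimated log2 difference between the denervated and sham side for each gene (rows) at days 1, 3 and 7 (panels), with 95% intervals from limma. At day 1 all 9 estimates are below 0 and at day 7 all 9 are above 0 (6 of 9 after median-of-ratios rescaling), and the day 7 intervals of H2-Aa, Cd207 and Ctss do not include 0 before adjustment over all genes.

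Over the whole set, 0 of the 9 genes were called by limma at an adjusted p under 0.05 on any day. Over all genes, 0% were called for day 1, 1.45% for day 3 and 1.53% for day 7, and a count of 0 among 9 genes is near that background. At an unadjusted p under 0.05 there were 0 of 9 at day 1 (4.29% of all genes), 0 of 9 at day 3 (14.7%) and 3 of 9 at day 7 (H2-Aa, Cd207 and Ctss, against 12.3%). These fits left out the pairing of sides. With the mouse as a block, H2-Aa, H2-Eb1, Cd74, Cd207 and Ctss had an unadjusted p under 0.05 at day 7 (limma). So did 2665 of all 15081 genes, and none of the 9 did at days 1 and 3. The direction went from 9 of 9 lower on the denervated side at day 1 (median difference -0.40, against 0.01 over all genes) through 8 of 9 lower at day 3 (median -0.19, against -0.01) to 9 of 9 higher at day 7 (median 0.40, against 0.04), or 6 of 9 higher at day 7 after rescaling by median of ratios, which turned the small differences of H2-Ab1, H2-DMa and H2-DMb1 negative. These genes share cells and samples, so the 9 signs are not independent of each other. The day 1 median ranged from -0.83 without mouse 1 to -0.12 without mouse 3, and the day 3 median changed sign, to 0.11, without mouse 1. The day 7 median lay between 0.27 and 0.47 when any 1 mouse was left out.

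Counted by mice, 0 of 9 genes had the same sign in all 3 mice at day 1, where 27.2% of all genes did. At day 3 there were 2 of 9, both lower (H2-DMb1 and Ciita), against 42.5% of all genes, and neither with equal sums. At day 7 there were 6 of 9, all higher (H2-Aa, H2-Eb1, Cd74, Ciita, Cd207 and Ctss), against 41.8%, or 5 of 9, without Ciita, under either rescaling. Groups that did not overlap were found for 0 of 9 genes at day 1, where 9.56% of all genes had such groups in either direction, and for 0 of 9 at day 3, against 21.5%. The 2 of 9 at day 7, Cd207 and Ctss, compare with 17.6% of all genes. Over all 9 mice, an exact two-sided sign-flip test of the within-mouse differences gave an unadjusted p under 0.05 for 0 of 9 genes, against 16.2% of all genes. The p-values ran from 0.184 for H2-DMb1 to 0.988 for Ctss, where the smallest possible was 0.0039. With the days pooled in limma, 0 of 9 were called, against 3.1% of all genes.

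The comparisons between days gave no call for these genes either. The change of the side difference called 0 of 9 from day 1 to day 3 (0.122% of all genes called), from day 1 to day 7 (0.163%) and from day 3 to day 7 (0%). The day 7 difference nevertheless exceeded the day 1 difference in 9 of 9 genes, by 1.44 for Ctss (SE 0.74, adjusted p = 0.745, limma) and by 0.83 for H2-Eb1 (SE 0.55). On the sham side the counts were 0 of 9 from day 1 to day 3 (0% of all genes), from day 1 to day 7 (0.976%) and from day 3 to day 7 (0%). On the denervated side they were 0 of 9 from day 1 to day 3 (10.3%), from day 1 to day 7 (20.8%) and from day 3 to day 7 (0.298%). Ctss came nearest, with 24.0 TPM (SD 3.91) at day 1 and 66.8 TPM (SD 16.9) at day 7 on the denervated side, a log2 difference of 1.44 (SE 0.52, adjusted p = 0.0628). It was called (1 of 9) when the denervated samples were fitted alone and when day 1 mouse 1 was left out. Different mice were sampled on each day.

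At days 1 and 3 the mice differed in direction. In day 1 mouse 1 all 9 genes were higher on the denervated side (median log2 difference 0.38), and in day 1 mice 2 and 3 all 9 were lower (medians -0.67 and -0.99). In day 3 mouse 1 8 of 9 were lower (median -0.65), with Cd207 the exception at 0.57. Day 3 mice 2 and 3 had 5 and 6 of 9 genes higher (medians 0.02 and 0.19). Each of the day 7 mice had 8 of 9 genes higher, with medians of 0.25, 0.33 and 0.55. The gene that was lower in these 3 mice was H2-Ab1 in mouse 1, H2-DMb1 in mouse 2 and H2-DMa in mouse 3. Over the same mice the median of all genes moved between -0.03 and 0.07.

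**Figure D3:**
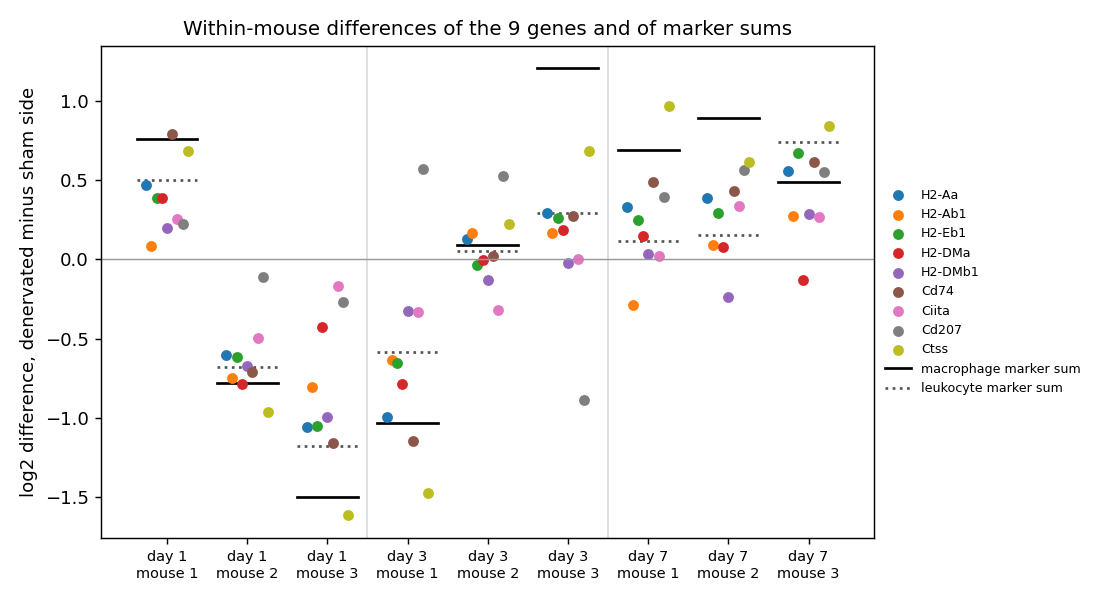
Log2 difference between the denervated and sham side (y axis) in each of the 9 mice (x axis), with a point for each gene and bars for the summed macrophage and leukocyte markers. The genes lie together above 0 in day 1 mouse 1, together below 0 in day 1 mice 2 and 3, and mostly above 0 in the day 7 mice, and both bars lie on the same side of 0 as the median gene in 9 of 9 mice.

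Markers of some immune cells moved with these differences. The summed TPM of 4 pan-leukocyte genes (Ptprc, Coro1a, Laptm5 and Cd52) and of 12 macrophage genes (among them Adgre1, Csf1r and the C1q genes) had the sign of the median class II gene in 9 of 9 mice. So did the low B cell sum, and the monocyte sum did in 8, the fibroblast and the T and NK cell sums in 7 and the muscle and mast cell sums in 6. Lyz2 weighed most in the macrophage sum (mean 183 TPM, against 3.29 for Adgre1 and 12.8 for Csf1r). Single macrophage genes differed: Mertk was higher on the denervated side in 1 of 9 mice, and Cd163 and Aif1 in 4. The macrophage sum differed by 0.76, -0.78 and -1.50 (log2) in the day 1 mice, by -1.03, 0.09 and 1.20 in the day 3 mice and by 0.69, 0.89 and 0.49 in the day 7 mice. Its range was 94.2 to 511 TPM on the sham side and 159 to 192 TPM on the denervated side at day 1, 238 to 601 against 294 to 548 TPM at day 3, and 250 to 657 against 464 to 922 TPM at day 7. The leukocyte sum ranged from 60.5 to 93.3 TPM on the sham side and from 69.6 to 101 TPM on the denervated side at day 7. The sum of 10 dendritic cell markers had the sign of the median gene in 6 of 9 mice, and at day 7 it ranged from 49.2 to 68.7 TPM on the sham side and from 48.0 to 58.6 TPM on the denervated side. In levels over the 18 samples the lists ranked differently. The Pearson correlation of the log2 sum with the mean of H2-Aa, H2-Ab1, H2-Eb1 and Cd74 was 0.86 for leukocyte and 0.83 for dendritic cell markers. It was 0.76 for T and NK cell, 0.58 for mast cell, and 0.51 for macrophage and muscle markers. The other lists had 0.39 (monocyte and fibroblast), 0.31 (B cell), 0.17 (neutrophil) and 0.14 (keratinocyte and endothelium). No gene of these lists was at 0 in all samples of a group. None of the 12 macrophage markers was called at day 7 by limma, and Lyz2, which encodes lysozyme, was with the mouse as a block (adjusted p = 0.0375). From day 1 to day 7 on the denervated side, where Ctss came nearest to a call, 5 of the 12 macrophage markers rose, where 20.8% of all genes were called: Lyz2 by 2.36 (log2), Adgre1 by 2.25, C1qb by 1.86, C1qc by 1.80 and Csf1r by 1.24, and Cd68 rose by 1.62 from day 1 to day 3. In the same comparison with day 7 the B cell marker Cd79b rose by 1.15, the mast cell marker Cma1 by 2.28 and the dendritic cell marker Zbtb46 by 0.69. None of these markers was called on the sham side from day 1 to day 7. The sham mast cell sum went from 19.0, 175 and 114 TPM at day 1 to 453, 205 and 278 TPM at day 7. The sham macrophage sum went from 94.2, 330 and 511 TPM to 415, 250 and 657 TPM. Between sides at day 7 the mast cell sum differed by -0.60, 0.24 and -0.22 (log2). The summed neutrophil markers were higher on the denervated side in 9 of 9 mice, a sum made up mainly of S100a8 and S100a9 (means of 602 and 158 TPM, the other 4 genes under 8 TPM). S100a8 was called at day 7 (log2 difference 4.33, SE 0.51, adjusted p = 0.0115, limma). The receptor genes of that list, Csf3r (-0.46 at day 1 and 0.56 at day 7) and Cxcr2 (-0.30 and 0.41), had the signs of the class II medians on these days and were not called. At day 3, where the class II median was -0.19, Csf3r had the opposite sign (0.27) and Cxcr2 the same (-0.12). Retnlg of that list was above 0 on each day (0.03, 0.42 and 1.19) and was not called. In bulk tissue fewer cells of a type and less RNA per cell cannot be told apart, and the part of cell numbers in the class II values was not tested.

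The level of muscle markers also differed between samples, and the amount of muscle in the punch was not measured. The 7 muscle markers summed to 3316 TPM in the sham sample of day 1 mouse 1 and 4815 TPM in its denervated sample, and to between 9865 and 21571 TPM in the other 16 samples. This sham sample also had the lowest leukocyte sum, 36.0 TPM, beside its class II levels, the lowest of the 6 samples of day 1 for each gene except Cd207. Its sum over all transcripts, 833186, was the lowest of the 18 samples too. Ckm, the muscle creatine kinase, was lower on the denervated side at day 7 (log2 difference -1.12, adjusted p = 0.0100, limma). From day 1 to day 7 on the denervated side, where 20.8% of all genes were called, Tnnt3, Acta1, Myh1 and Myh2 of the muscle list rose. So did Lum of fibroblasts and Kdr, Vwf and Cdh5 of endothelium, and the keratinocyte gene Krt14 fell by 0.99. Myh2, Kdr, Vwf and Krt14 were called in each of the 6 fits without 1 mouse, and the others in 1 to 3. Kdr was also called on the sham side (adjusted p = 0.0183, limma), but not with that side fitted alone (0.166). The sham muscle sum went from 3316, 11562 and 17388 TPM at day 1 to 20946, 20847 and 18064 TPM at day 7. The 6 keratinocyte markers spanned only 5739 to 10282 TPM over all samples. Whether punch composition accounts for the spread of the class II genes was not tested.

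Among themselves most of the genes moved together. Over the 18 samples the Pearson correlation of log2 levels between H2-Aa, H2-Ab1, H2-Eb1 and Cd74 ranged from 0.74 to 0.99 over 6 pairs, with a median of 0.92. Over the 9 within-mouse differences it ranged from 0.87 to 0.99. With H2-DMa and H2-DMb1 added, the 15 pairs had a median of 0.86 for levels and 0.87 for differences. Ctss followed less closely in levels (median 0.64 with the other 8 genes) than in differences, where it reached 0.99 with H2-Aa, 0.98 with Cd74 and 0.96 with H2-Eb1. Ciita had medians of 0.74 for levels and 0.73 for differences. Cd207 stood apart, with a median of 0.51 for levels and 0.17 for differences (range -0.04 to 0.31). These correlations are descriptions over samples that share mice and a common tissue mixture.

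The genes outside the set with the most similar pattern to the mean of H2-Aa, H2-Ab1, H2-Eb1 and Cd74, among 11135 genes with a mean TPM of at least 5, were Selplg (r = 0.86), Lilrb4a (0.83), Grn (0.81), Il2rg (0.81) and Mgl2 (0.80), over 18 samples. Selplg encodes the P-selectin ligand of leukocytes, Lilrb4a an inhibitory receptor of myeloid cells, Il2rg the shared receptor chain of several interleukins and Mgl2 a lectin of macrophages and dermal dendritic cells. The 5 genes nearest to Cd207 were others: Serpinb10 (r = 0.81), Pla2g4f (0.80), Nrm (0.80), Spag5 (0.79) and Klk8 (0.74). Klk8 encodes a protease of the epidermis, at a mean of 151 TPM here. 

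The transcripts behind the sums were not in constant proportion. In 3 genes a shorter transcript carried a large and variable share: H2-Aa-204 (826 bases, annotated as protein coding, against 1128 for H2-Aa-201), H2-Ab1-203 (515 bases, a retained intron form, against 1212 for H2-Ab1-201) and H2-DMb1-203 (692 bases, a processed transcript, against 1404 for H2-DMb1-201). H2-Aa-204 made up 0.11% to 52.0% of the gene's TPM, H2-Ab1-203 8.67% to 49.4% and H2-DMb1-203 12.5% to 66.6%. Their shares moved together over the samples (r = 0.82, 0.68 and 0.64 for the 3 pairs). In the 6 samples of each day the median share of H2-Ab1-203 was 44.3% (day 1), 18.1% (day 3) and 33.2% (day 7), and the 6 samples of day 1 overlapped with those of day 3 only between 28.3% and 28.9%. H2-Aa-204 had medians of 46.8%, 20.5% and 32.3%, and H2-DMb1-203 of 49.6%, 31.4% and 38.5%. TPM counts a read on a short transcript as more molecules than a read on a long one, so these shares enter the sums.

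**Figure D4:**
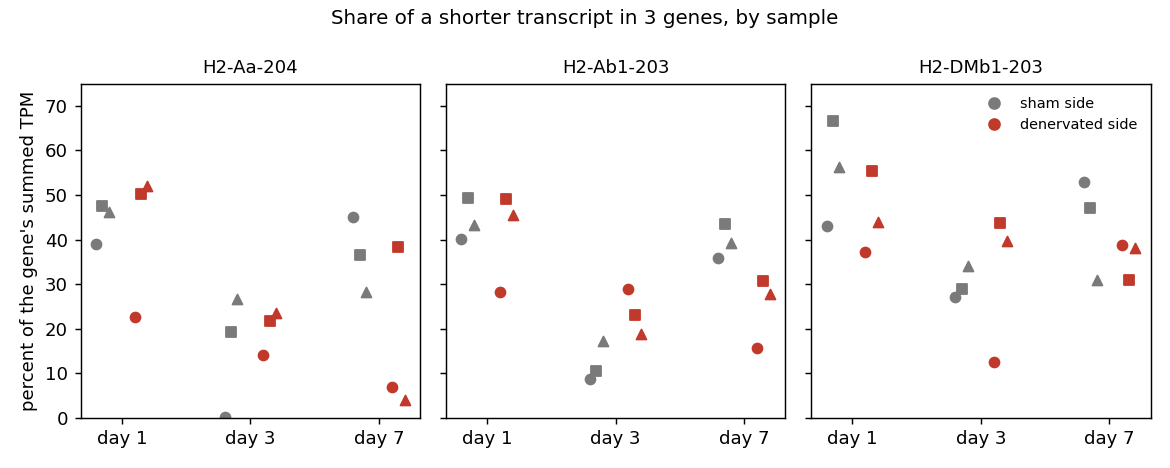
Percent of the summed TPM of the gene that fell on H2-Aa-204, H2-Ab1-203 and H2-DMb1-203 (y axes) in each sample by day (x axes), sham in grey and denervated in red, with circles, squares and triangles for mice 1, 2 and 3. The day 1 medians, 46.8%, 44.3% and 49.6%, lie above the day 3 medians of 20.5%, 18.1% and 31.4%.

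Counting only the transcript with the highest mean of each gene changed the day 7 values of these 3 genes. H2-Aa-201 measured 98.6, 86.6 and 119 TPM on the sham side of day 7 and 213, 111 and 235 TPM on the denervated side, a log2 difference of 0.81 in place of 0.42 (adjusted p = 0.382, limma). H2-Ab1-201 measured 117, 80.0 and 81.6 TPM against 128, 105 and 120 TPM, a difference of 0.36 in place of 0.03 (adjusted p = 0.516). H2-DMb1-201 measured 10.9, 10.1 and 11.6 TPM against 14.1, 11.5 and 13.1 TPM, a difference of 0.23 in place of 0.03 (adjusted p = 0.545). None of these was called. H2-Eb1 and Cd207 each have 1 transcript in the table, so their values are free of this choice. The 2 main forms of the invariant chain kept their proportion: Cd74-201 made up 71.9% to 83.4% of Cd74 and Cd74-202 most of the rest. Ctss-202 carried 94.9% of Ctss, and Ciita-201 74.8% of Ciita on average.

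Other chains of the class II region were scarce. H2-Ea-ps, which the annotation lists as a pseudogene of the E alpha partner of H2-Eb1, was at 0 in 15 of 18 samples and at most 0.43 TPM. H2-Oa and H2-Ob, the subunits of the H2-DM inhibitor H2-O of B cells, averaged 0.49 and 0.68 TPM, and H2-Eb2 averaged 0.06 TPM. Of these 5 chain genes only H2-DMb2 passed the filter, and it was not called on any day (day 7 difference 0.34, SE 0.35, adjusted p = 0.758, limma). B cell markers were low as well, with a sum of 1.07 to 6.55 TPM over 5 genes.

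Regulators and processing enzymes were compared with the same fits. Of 9 genes for transcription factors listed with this pathway (Rfx5, Rfxap, Rfxank, Nfya, Nfyb, Nfyc, Creb1, Irf8 and Spi1), 0 were called on any day, with median differences of -0.09 (day 1), -0.10 (day 3) and -0.08 (day 7). At day 7 Spi1 (0.53), Irf8 (0.23) and Creb1 (0.12) were above 0 and the others below. Of the 8 processing and turnover genes in the table, 0 of those tested were called on any day. Among them at day 7 the lysosomal proteases Ctsl (0.78, SE 0.20, adjusted p = 0.148), Ctsb (0.66, SE 0.28, adjusted p = 0.416) and Ctsd (0.47, SE 0.18, adjusted p = 0.365) had positive differences, as Ctss did. Ctsl was called with the mouse as a block (adjusted p = 0.0332). Cst3, which encodes the cathepsin inhibitor cystatin C, had a difference of -0.11 (SE 0.11, adjusted p = 0.750). From day 1 to day 7 Ctsb rose on the denervated side by 0.75 (SE 0.25, adjusted p = 0.0454), the only gene of this list called in a comparison between days, and it was not called with that side fitted alone (adjusted p = 0.0671).

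Costimulatory genes and the interferon gamma route gave 0 calls between sides on any day, of 5 and 6 genes tested. Cd86, a costimulatory ligand of antigen presenting cells, had a day 7 difference of 0.93 (SE 0.30, adjusted p = 0.268, limma). Ifng itself averaged 0.30 TPM, was at 0 in 4 of 18 samples and did not pass the filter. On the denervated side between days, Icosl fell by 0.47 to day 3 (adjusted p = 0.0404) and by 0.53 to day 7 (adjusted p = 0.0146), Cd83 rose by 0.98 to day 7 (adjusted p = 0.0477), and the kinase gene Jak1 rose by 0.51 to day 3 (adjusted p = 0.0233) and 0.62 to day 7 (adjusted p = 0.0049), with 10.3% of all genes called to day 3 and 20.8% to day 7. With that side fitted alone Icosl and Jak1 to day 3 (adjusted p = 0.0612 and 0.0507) and Cd83 (0.0530) were not called. The class I pathway, which presents peptides of the cell's own proteins, was at the same time called in 0 of 11 genes between sides on any day. From day 1 to day 7 it had 2 of 11 genes lower on the sham side, where 0.976% of all genes were called (H2-K1, by -0.56, and the class I transactivator Nlrc5, by -0.62), and neither was called with that side fitted alone (adjusted p = 0.194 and 0.203). It had 2 lower on the denervated side, where 20.8% were called (H2-K1, by -0.40, and the peptide transporter Tap1, by -0.45), and Nlrc5 was lower at day 3 on the denervated side (by -0.52). Class II genes had no call in the same comparisons, and the difference between both pathways was not tested.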

How the data were processed

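Per the labels and the study's methods, total RNA was prepared with the Illumina TruSeq RNA v2 kit, and the authors used bcl2fastq 2.17.1.14, removed duplicate reads, trimmed, and quantified transcripts with kallisto 0.43.1 and sleuth on Ensembl GRCm38. The deposited values are transcript TPM normalized between samples by the authors, a signal whose column sums ran from 833186 to 1143839. Here 98.46% of 113194 transcripts were matched to GENCODE M21 and summed to 35150 genes. Sides were compared with limma 3.58.1 (R 4.3.3, mean-variance trend) on log2(TPM + 0.5), so fold changes of low genes are understated, for genes with TPM of at least 1 in 47% of samples, with Benjamini-Hochberg adjustment over all genes tested and a threshold of 0.05. Each day was fitted alone, and contrasts between days used all 18 samples. Within-mouse differences were also tested with an exact sign-flip test. Samples of a mouse are true pairs: deviations from group means correlated within each of the 9 mice (0.163 to 0.568). On simulated data the day fits recovered 43.7% to 50.6% of 2-fold and 73.6% to 79.8% of 4-fold changes among 14437 to 14566 genes. The simulated noise was independent between samples, with the same spread on every day for a given gene. These shares therefore do not give the recovery for the 9 genes, whose spread differed between days (SE of Ctss 0.67 at day 1 and 0.23 at day 7). Library sizes were inferred from the steps of low values of long transcripts (70.0% to 85.2% within 0.1 of a whole read) and are estimates. The genes and lists were chosen with earlier results of these data known. All 9 genes were named, and so were members of other lists past the threshold, up to 4 per list of highest level, and the 5 genes correlating best with the chains and Cd74 and with Cd207. H2-Ea-ps, Ifng and 5 transcription factors (Rfx5, Creb1, Nfya, Spi1 and Irf8) were added after their values were seen. Alternatives covered the pseudocount, filter, rescaling, main transcript, trend, block, samples fitted and left-out mice. Ifi30 was not analysed here. Groups came from the labels, and no sample was left out. The p-values of the main limma fits measure the spread between samples, with both sides of a mouse entered as separate samples. Those of the block fits and the sign-flip test measure the spread of within-mouse differences. Both describe these 9 mice only.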

Additional observations from a re-analysis of the deposited data

Results flagged for a closer look

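Ciita was lower on the denervated side of all 3 mice at day 3 and higher in all 3 at day 7, so the samples of both days moved in opposite directions. The within-mouse differences were -0.33, -0.32 and -0.001 (log2) at day 3 and 0.02, 0.33 and 0.27 at day 7, and the day 7 mean exceeded the day 3 mean by 0.42. The opposite signs did not hold in every mouse under other processing: with the main transcript 2 of 3 mice were higher at day 3, after median-of-ratios rescaling 2 of 3 were higher at day 7, and with equal sums 1 of 3 was higher at day 3 and 2 of 3 at day 7. The change of effect itself was not called (SE 0.41, adjusted p = 0.891 over 14757 genes, limma; 0.601 when sides were paired within mice). In none of the 9 genes did a mouse lie apart from the other 8 by Dixon's criterion on the within-mouse differences.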

How the results depend on the processing

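Of 506 recomputed differences of the 9 genes (days 1, 3, 7 and all days pooled), 472 kept their sign and side of the threshold, 33 changed sign, all of them uncalled values, and 1, Ctss at day 7, passed the threshold. With the replicate block the day 7 count of called genes was 1 of 9 (Ctss, 0.80, adjusted p = 0.0351; 328 genes called over the table in place of 230), and the block changed no other count of the 9. Without any 1 mouse Ctss stayed uncalled at day 7 (0.73 to 0.90). The count for the denervated side from day 1 to day 7 was 1 of 9 with the samples of that side fitted alone, and 0 to 1 without single mice (1 without day 1 mouse 1). The sign-flip count was 0 to 1 without single mice, with Cd207 at p = 0.0469 (exact, 8 mice) without day 3 mouse 3. Median-of-ratios rescaling gave -0.012 for H2-Ab1, -0.0042 for H2-DMa and -0.012 for H2-DMb1 at day 7. With the main transcript only, the pooled differences were 0.068 for H2-Aa and 0.019 for Ciita. Without single mice the day 1 differences ranged from -0.93 to 0.040 for Cd74, -0.33 to 0.042 for Ciita and -0.19 to 0.054 for Cd207. The day 3 differences ranged from -0.43 to 0.21 for H2-Aa, -0.23 to 0.16 for H2-Ab1, -0.34 to 0.11 for H2-Eb1, -0.39 to 0.091 for H2-DMa, -0.56 to 0.15 for Cd74, -0.18 to 0.55 for Cd207 and -0.63 to 0.45 for Ctss. The day 7 differences ranged from -0.10 to 0.18 for H2-Ab1, -0.025 to 0.11 for H2-DMa and -0.10 to 0.16 for H2-DMb1. The pooled differences ranged from -0.13 to 0.070 for H2-Aa, -0.15 to 0.069 for H2-Eb1, -0.15 to 0.095 for Cd74, -0.10 to 0.0064 for Ciita and -0.13 to 0.20 for Ctss. Counts of called genes over the whole table moved more. Without single mice they ranged from 0 to 133 at day 3 (217 with all mice; 7 without mouse 2, 0 without mouse 3), from 1 to 127 at day 7 (1 without mouse 1, 5 without mouse 2) and from 227 to 692 with days pooled (457). The day 1 count of 0 became 29 with all 18 samples in one fit, 6 without the trend, 4 without mouse 1, 2 with equal sums and 1 with every gene above 0. For the change of effect from day 1 to day 3 it was 68 with the block and 18 without, and from day 1 to day 7 24, 15 with equal sums and 14 with the main transcript. From day 3 to day 7 on the denervated side it was 44, 28 after median-of-ratios rescaling, 18 with the main transcript and 29 without the trend. On the sham side from day 1 to day 7 it was 144, and 1 with that side fitted alone. Of the 23 listed genes called on the denervated side from day 1 to day 7, 21 were called with that side fitted alone and 6 in each of the 6 fits without 1 mouse. The causes of these changes were not tested. With 3 mice a day, 1 mouse decided the sign of most day 3 values, and the 73 reads that Cd207 had in the median library limited its precision.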
